A study of Mus musculus with 59 samples.

Results

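The 36 genes described here are transcripts that astrocytes carry at high levels in mouse brain, followed across prefrontal cortex RNA-seq of young mice with a Shank3 mutation that were exposed to fluoxetine or lithium. They were taken by symbol from a list of astrocyte genes, and the rule used no measured value, although the list was drawn up with earlier results of these data known. All 36 were found among the 18088 genes of the deposited table, and all 36 were among the 16599 genes tested, which had a mean of at least 10 normalized counts.

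The study set heterozygous Shank3 knock-in mice (HT) beside wild-type mice (WT), all of the C57BL/6J strain. Shank3 encodes a scaffold protein of excitatory synapses. Pups of both sexes took in vehicle, fluoxetine (a serotonin reuptake inhibitor) or lithium (a mood stabiliser) through their mothers' milk from postnatal day 3 to day 24, and the tissue was taken on day 25. The 59 mice form 12 groups of genotype, drug and sex, with 5 mice in each group except WT lithium females, with 4.

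Joined over sex, these groups make 6 arms: WT vehicle, WT fluoxetine, HT vehicle, HT fluoxetine and HT lithium with 10 mice each, and WT lithium with 9. The WT mice have no knock-in allele, and the vehicle arms received neither drug. The labels do not give litters, and pups fed by 1 mother share an exposure, so the p-values treat as separate some mice that may not be. In whole tissue, fewer cells of a type and less RNA per cell cannot be told apart.

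Sequencing depth, recovered from the normalized counts, ran from 22984556 to 35969254 reads per library. Shank3 had a median of 7616 normalized counts in WT vehicle and 7756 in HT vehicle libraries, so its level does not check the genotype label of a knock-in. All 8 excitatory neuron markers and all 12 markers of myelinating oligodendrocytes were above 0 in every library. Of 8 olfactory bulb markers, 6 were above 0 in every library, while Tbx21 was at 0 in 2 libraries and Eomes in 3. An index of those markers, scaled to a mean of 1 over all libraries, ran from 0.0750 to 4.33. It was over 2.5 in 7 libraries, and an eighth had only 2.70% of its counts from mitochondrially encoded genes. Results were computed with and without these 8 libraries, which are called the doubted libraries. HT vehicle female 1, which is not among them, had a summed count of 52902 over choroid plexus and ependyma markers, against 120.3 to 398 in every other library.

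Astrocytes take up glutamate and GABA after release, return glutamine to neurons, buffer potassium and water, store glycogen and secrete lipoproteins and factors that act on synapses. They are joined into networks by connexin channels. In rodent cortex they multiply and mature during the first postnatal weeks, which is when these pups were exposed. Lithium inhibits glycogen synthase kinase and inositol monophosphatase, and fluoxetine blocks the serotonin transporter.

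Of the 36 genes, 3 passed the test for lithium against vehicle in WT mice, and their promoters are shown because Gjb6 and Cbs also passed in HT mice while S100b was the 1 member called lower. The sequences are the 250 bases before the start site, 5′ to 3′ on the gene's strand, from RefSeq on build GRCm38.p6. Capitals mark TTGGC or its reverse complement GCCAA, the core letters bound by NFI factors, which act in astrocyte development.
Gjb6, minus strand of chr14:57133612-57133861: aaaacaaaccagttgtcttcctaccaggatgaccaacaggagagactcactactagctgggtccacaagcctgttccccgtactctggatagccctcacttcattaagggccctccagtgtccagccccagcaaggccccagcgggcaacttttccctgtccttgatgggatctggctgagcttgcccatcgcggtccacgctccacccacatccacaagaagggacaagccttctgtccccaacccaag
Cbs, minus strand of chr17:31637206-31637455: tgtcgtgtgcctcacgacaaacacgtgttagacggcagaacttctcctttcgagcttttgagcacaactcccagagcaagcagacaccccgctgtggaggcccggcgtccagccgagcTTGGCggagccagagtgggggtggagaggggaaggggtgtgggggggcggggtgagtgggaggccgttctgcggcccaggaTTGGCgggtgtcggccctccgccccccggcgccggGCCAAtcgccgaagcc
S100b, plus strand of chr10:76253586-76253835: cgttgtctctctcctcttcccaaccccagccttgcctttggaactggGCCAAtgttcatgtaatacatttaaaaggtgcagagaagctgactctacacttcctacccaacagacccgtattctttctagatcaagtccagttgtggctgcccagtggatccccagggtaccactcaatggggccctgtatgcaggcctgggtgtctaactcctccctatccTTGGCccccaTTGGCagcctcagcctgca

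The Cbs and S100b sequences each hold these letters at 3 places and the Gjb6 sequence at none. Over windows that also take in the 50 bases after the start, read on both strands, TTGGC was present in 15 of the 31 members with a promoter in the table and in 41.5% of 32851 promoters. The full palindromic NFI site was in 0 of 31 and 0.0365%. The TCF/LEF letters ATCAAAG were in 2 of 31 members and 3.21% of all promoters. Such a match describes letters and is no evidence of binding. Aqp4, Clu, Sox9, Slc14a1 and Sparcl1 were not matched.

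The members spanned a wide range of abundance. On the scale of normalized counts per kilobase of transcript in WT vehicle mice, Apoe, the main lipid carrier of the brain, had the highest level, 22875 ± 2229 (SD, n = 10). Sparcl1, a secreted matrix protein that promotes synapse formation, stood at 15449 ± 723, and Glul, the enzyme that makes glutamine from glutamate, at 15164 ± 810. The levels of Sparcl1 and Glul do not differ beyond their spread, while the lowest Apoe library, at 19974, was above the highest Sparcl1 library, at 16335.

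Next in order of level per kilobase came Clu, an apolipoprotein, with 8834 ± 1180, and the main glutamate transporter Slc1a2 with 7298 ± 535. Aldoc, the brain aldolase, had 6033 ± 415 and the second glutamate transporter, Slc1a3, 4915 ± 434. Each overlapped its neighbour in range. In the middle stood the connexin Gja1, 1708 ± 172, the filament protein Gfap, 1355 ± 274, and the water channel Aqp4, 852 ± 156. The connexin Gjb6 was at 580.0 ± 82.2 and Aldh1l1, a folate enzyme often used as a pan-astrocyte marker, at 395.0 ± 45.8.

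Sox9, a transcription factor that keeps astrocyte identity, had 143 ± 33.8 normalized counts per kilobase and the urea transporter Slc14a1 the lowest level, 67.0 ± 9.30. The member median was 980 per kilobase, against 167 over all genes tested. Above that wider median lay 32 of 36 members, and 17 were in the top 10 percent. The exceptions were Sox9, the receptor Bmpr1b, the transsulfuration enzyme Cbs and Slc14a1. These levels use the longest protein-coding transcript, 6226 bases for Cbs, and a shorter length would place a gene higher.

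**Figure D1:**
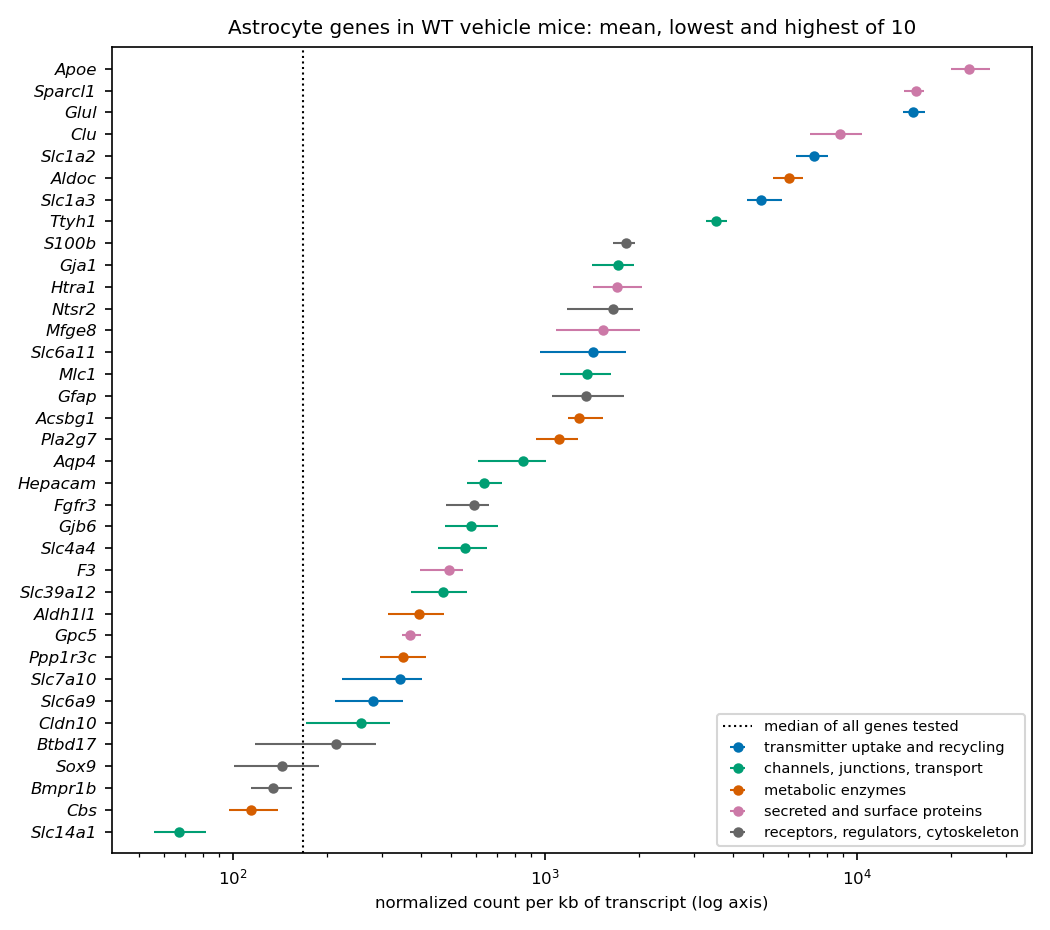
Level of each of the 36 astrocyte genes in the 10 WT vehicle libraries, as normalized counts per kilobase of transcript on a log axis. The dotted line is the median of all genes tested, 167, and 32 of the 36 genes lie above it.

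Spread between mice was near that of all genes tested, which were not matched to the members for level. The coefficient of variation within an arm, taken as the median over the 6 arms with the sexes joined, had a member median of 12.4%, against 12.1% over all genes tested. Ttyh1, a chloride channel family member, varied least, by 5.09%. The GABA transporter Slc6a11 varied most, by 31.1%, followed by Gfap with 26.8% and the glycine transporter Slc6a9 with 23.1%.

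Summed over all 36 genes, the HT vehicle libraries had the lowest median, 317270 normalized counts (range 295335 to 355261), and the HT lithium libraries the highest, 361062 (336370 to 413205). These ranges overlap. The other arms lay between, with medians of 328733 in WT vehicle, 339572 in WT fluoxetine, 341841 in WT lithium and 338747 in HT fluoxetine. Single libraries could stand apart from their arm over most members: in HT lithium male 2 and in WT lithium male 5 only 2 of 36 genes were above the arm median, and in WT vehicle male 5 there were 34.

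Lithium against vehicle in HT mice gave the most members past the test. Of 36 genes, 12 were higher and 0 lower at an adjusted p under 0.05 in limma, which compared log2(normalized count + 1) over all genes. Among all genes tested, 20.3% were called in this comparison, 10.9% higher and 9.43% lower, so calls were common throughout. The median change of the members was 0.11 on the log2 scale, against -0.00 for all genes, and 25 of 36 were above 0. No member had arms that did not overlap, against 1.02% of all genes. Quantile normalization left 9 of the 12, without Glul, Sparcl1 and Ttyh1, and leaving out HT vehicle female 1 gave 14. In females alone 8 of the 12 passed and in males alone 3, Mfge8, Aldoc and Aldh1l1, while the interaction of sex and lithium called 0 members. The fits of 1 sex hold fewer libraries, and the share of all genes they called is not given here.

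Metabolic enzymes were the role with the largest share of calls, 4 of 6. Aldoc had 14424, 15876 and 21010 normalized counts (lowest, median and highest) in HT vehicle libraries and 16554, 20261 and 23716 in HT lithium libraries. Its log2 change was 0.30 ± 0.07 (SE), with a limma adjusted p of 0.00154 and the same 0.30 in females and males. All 10 lithium libraries were above the vehicle median, although only 2 passed the highest vehicle library.

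Cbs, which joins homocysteine and serine, had 629, 711 and 853 normalized counts in HT vehicle and 768, 850.0 and 1071 in HT lithium libraries. The log2 change was 0.26 ± 0.06 (limma adjusted p 0.00196), with 0.41 in females and 0.11 in males. Acsbg1, an acyl-CoA synthetase, went from 3055, 3365 and 4118 to 3580.1, 3934 and 4720.2 normalized counts, a log2 change of 0.23 ± 0.06 (limma adjusted p 0.00235), with 0.37 in females and 0.09 in males. For both genes every lithium library exceeded the vehicle median. Aldh1l1 was higher by 0.22 ± 0.07 (limma adjusted p 0.0192), a call lost without HT lithium female 5 (a doubted library) or without HT vehicle male 3.

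Transmitter uptake and recycling gave 1 call in 6. Glul had 36021, 40210 and 45737 normalized counts in HT vehicle and 42396, 45756 and 54484 in HT lithium libraries. The log2 change was 0.19 ± 0.05 (limma adjusted p 0.00269), 0.29 in females and 0.10 in males, with 5 of 10 lithium libraries above the highest vehicle library. The glutamate transporters did not pass: Slc1a2 had a log2 difference of 0.21 (limma adjusted p 0.0911) and Slc1a3 of 0.01 (limma adjusted p 0.929). Without the doubted libraries Slc1a2 passed.

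Among secreted and surface proteins, 2 of 7 were higher. Mfge8, a bridging protein by which phagocytes take up debris, had 2241, 2839.5 and 3741 normalized counts in HT vehicle and 3289, 3759 and 4427 in HT lithium libraries. Its log2 change of 0.46 ± 0.10 was the largest of the 12, and its limma adjusted p, 0.000962, the smallest. Sparcl1 went from 38177, 39957 and 42748 to 41514, 43863 and 51069 normalized counts, a smaller change of 0.16 ± 0.04 (limma adjusted p 0.00247), 0.25 in females and 0.08 in males. For Sparcl1 7 of 10 lithium libraries were above the highest vehicle library. Apoe (0.21, limma adjusted p 0.0685) and Clu (0.17, limma adjusted p 0.169) did not pass.

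Channels, junctions and transporters gave 3 of 10 calls: Hepacam, a cell adhesion protein that binds the membrane protein Mlc1, Gjb6 and Ttyh1. Hepacam had 1583, 1989 and 2522 normalized counts in HT vehicle and 2069, 2278 and 2644 in HT lithium libraries, a log2 change of 0.17 ± 0.05 (limma adjusted p 0.00656), 0.28 in females and 0.06 in males. Gjb6 had 975, 1364 and 1698 against 1338, 1568 and 1908, a change of 0.25 ± 0.08 (limma adjusted p 0.0156), 0.44 in females and 0.06 in males. The change of Ttyh1 was 0.11 ± 0.03 (limma adjusted p 0.0195) and was not called without HT lithium male 5 or without HT vehicle male 5, a doubted library. Aqp4 had a difference of -0.13 (limma adjusted p 0.475) and Gja1, the other main astrocyte connexin, of 0.00 (limma adjusted p 0.99).

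In the group of receptors, regulators and cytoskeleton 2 of 7 were higher. Fgfr3, a fibroblast growth factor receptor, had 2083, 2413 and 3361 normalized counts in HT vehicle and 2554, 3099 and 3527 in HT lithium libraries, a log2 change of 0.28 ± 0.07 (limma adjusted p 0.00135), 0.49 in females and 0.08 in males. Btbd17, a protein of uncertain function, changed by 0.40 ± 0.11 (limma adjusted p 0.00859), and 8 of 10 lithium libraries lay above its highest vehicle library. Sox9 (0.24, limma adjusted p 0.0608), Gfap (0.14, limma adjusted p 0.585) and the calcium-binding protein S100b (-0.12, limma adjusted p 0.109) did not pass.

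**Figure D2:**
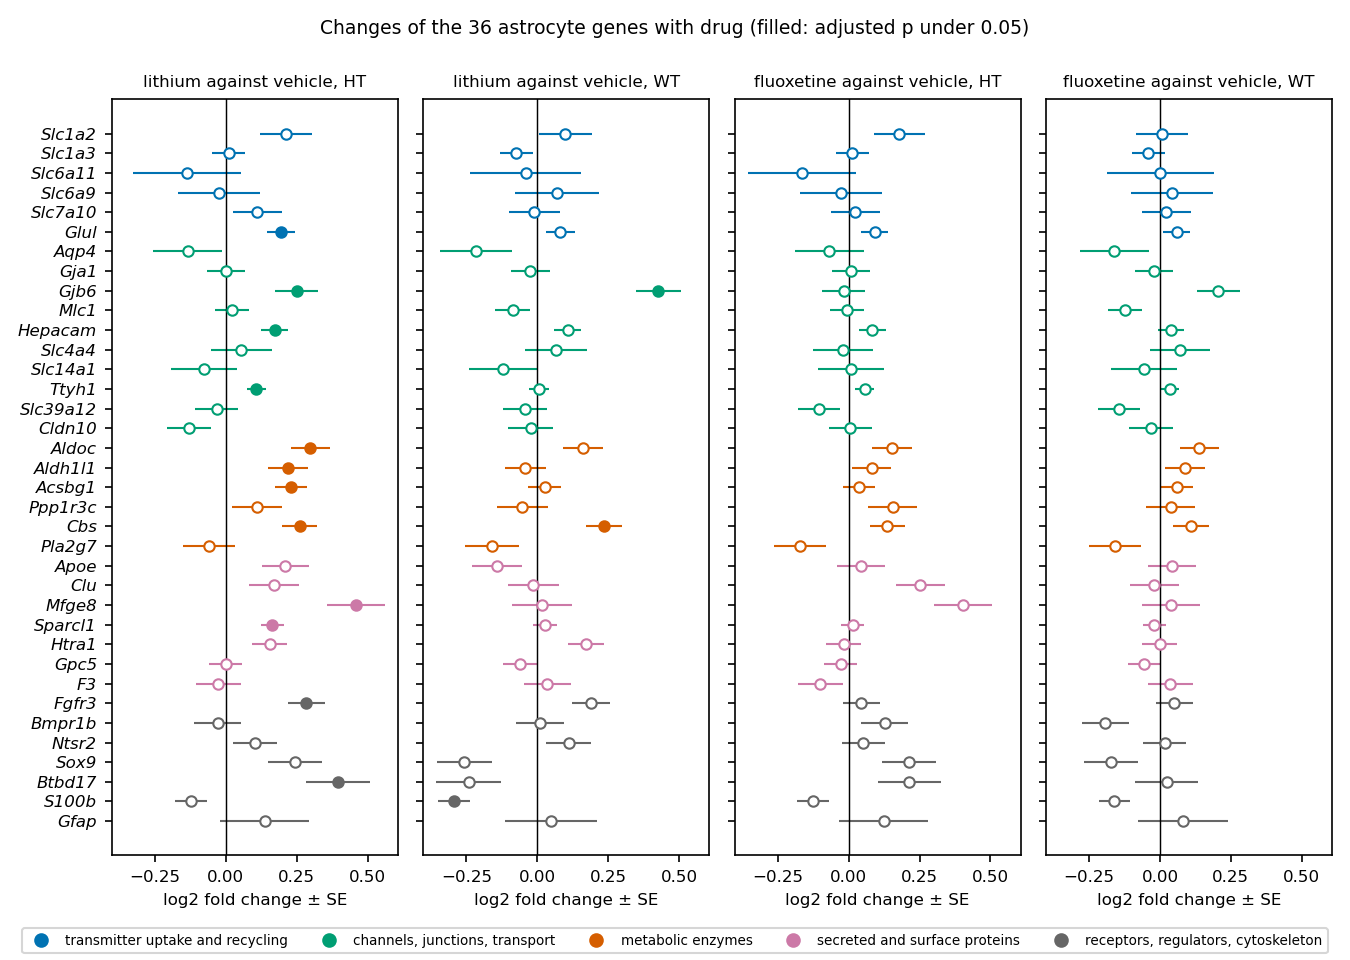
Log2 change of each astrocyte gene with its standard error for lithium and fluoxetine against vehicle in each genotype. Filled points have a limma adjusted p under 0.05: 12 for lithium in HT mice, 3 for lithium in WT mice and 0 for fluoxetine in either.

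Other properties of the libraries moved with the HT lithium comparison. The slope of expression on transcript GC content, in log2 units per 10 percentage points, had a median of 0.0830 in HT lithium libraries and -0.0606 in HT vehicle libraries. The 12 higher members had a median GC content of 52.6%, against 48.6% for the other members. Across genes, which are not independent replicates, the change correlated with GC content (Spearman 0.47, n = 16588 genes). With that trend removed, 10 of the 12 were still called, and Aldh1l1 and Btbd17 were not.

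The bulb index had a median of 0.200 in HT lithium (range 0.0750 to 3.04) and 0.680 in HT vehicle libraries (0.0862 to 3.08). The ranges overlap almost fully, and 0 of 8 bulb markers passed in limma or had an unadjusted p under 0.05. The sexes went opposite ways: the median index was 1.45 in HT lithium and 0.459 in HT vehicle females, but 0.118 and 1.03 in males. The changes given above by sex carry no adjustment for this. Myelin marker counts summed to a median of 106153 (52444 to 172405) in HT lithium and 153194 (76585 to 179087) in HT vehicle libraries. Of the 12 myelin markers 0 were higher and 1 was lower in limma, and 5 had an unadjusted p under 0.05. Their median log2 change was -0.32, and 0 of the 12 had a change above 0. Markers of other cells were called higher at shares like that of the members, 12 of 36: 3 of 8 for oligodendrocyte precursors (Cspg4, Gpr17 and Neu4), 3 of 10 for microglia (Csf1r, C1qa and Tmem119) and 2 of 10 for endothelial and mural cells (Flt1 and Pdgfrb). Among neuron markers Cux2 and Pvalb were higher, which is 1 of 8 excitatory and 1 of 6 inhibitory, and 0 of any of these lists were lower. Without the doubted libraries 12 members passed, 11 of them among the 12 above, with 2123 of all genes called against 3374 with all libraries. With the bulb index as a covariate 17 passed. With an index of the myelin markers as a covariate, a fit added after the data were seen, 15 passed, including all 12. The share of all genes called in these covariate fits is not given here. A rise in member calls cannot be told from a rise throughout.

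In WT mice fewer members passed the test for lithium. Against vehicle, 2 of 36 were higher and 1 lower, which is 8.33% called. Of all genes 12.8% were called (7.66% higher, 5.11% lower), so calls were no more frequent among the members than among all genes. The member median was -0.00 on the log2 scale, and 18 of 36 were above 0. As in HT mice, no member had arms that did not overlap, against 0.669% of all genes.

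Gjb6, which forms the channels of astrocyte gap junctions together with Gja1, had 1003, 1224 and 1482 normalized counts in WT vehicle libraries and 1382, 1639.5 and 2069 in WT lithium libraries. Its log2 change was 0.43 ± 0.08 (limma adjusted p 0.000171). The change was 0.32 in females and 0.53 in males, and 7 of 9 lithium libraries were above the highest vehicle library.

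S100b, a calcium-binding protein that astrocytes also secrete, went the other way, with 2446, 2697 and 2881 normalized counts in WT vehicle libraries and 1903, 2262 and 2599 in WT lithium libraries. It fell by 0.29 ± 0.06 on the log2 scale (limma adjusted p 0.000315), and 8 of 9 lithium libraries were under the lowest vehicle library. Both sexes showed the difference (-0.29 in females, -0.30 in males). Cbs was higher by 0.24 ± 0.06 (limma adjusted p 0.0101), from 604, 700.3 and 869 to 723, 839 and 954 normalized counts. Cbs did not pass when a trend with transcript length was removed. Fgfr3 had a difference of 0.19 (limma adjusted p 0.051).

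The rest of the much-used markers gave no call with lithium in WT mice. Aqp4 had 3079, 4687 and 5074 normalized counts in vehicle and 2699, 3418 and 4993 in lithium libraries, and the arms overlap almost fully. Gfap had 2787, 3579 and 4755 in vehicle and 2540, 3328 and 5338 in lithium libraries, and Slc1a2 74146, 84714 and 93260 in vehicle and 75196, 96285 and 100214 in lithium libraries. Sox9 had a difference of -0.26 (limma adjusted p 0.0748).

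**Figure D3:**
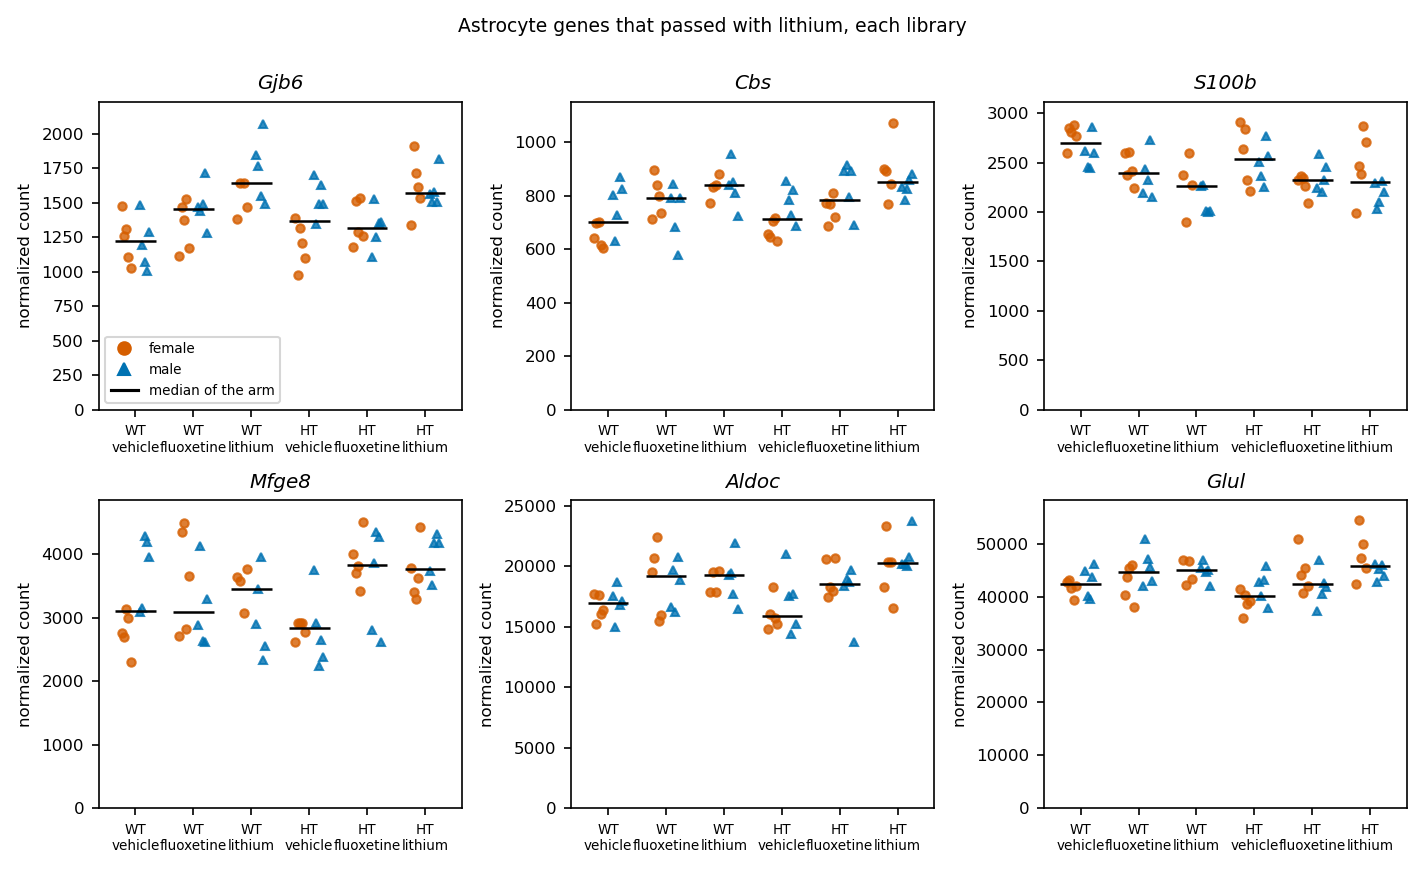
Normalized counts of Gjb6, Cbs, S100b, Mfge8, Aldoc and Glul in each of the 59 libraries by arm, with circles for females, triangles for males and a line at the arm median. For S100b 8 of the 9 WT lithium libraries lie under the lowest WT vehicle library.

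Gjb6 and Cbs passed with lithium in both genotypes, which is 2 of the 12 genes higher in HT mice and 2 of the 2 higher in WT mice. Of all 36 genes, 15 were above 0 in both genotypes, 10 were above 0 in HT and below 0 in WT mice, and 8 were below 0 in both. The difference between the genotypes in the lithium change was itself tested as an interaction, and limma called 0 members (0.00602% of all genes). At an unadjusted p under 0.05 there were 9. edgeR called 0 and DESeq2 called 1, Sox9. Here and below, counts at an unadjusted p and counts from either tool are given without the share of all genes. Such counts do not show an excess among the members. The largest interactions were Btbd17, 0.64 on the log2 scale (limma adjusted p 0.127), Sox9, 0.50 (0.181), Mfge8, 0.44 (0.240), and Apoe, 0.35 (0.254). The larger number of calls in HT mice is therefore not shown to be a difference between genotypes. Across all genes this interaction correlated with GC content (Spearman 0.51, n = 16588). Transcript GC content was 63.8% for Btbd17, 57.6% for Mfge8, 59.5% for Apoe and 49.3% for Sox9, against a member median of 49.8%.

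Fluoxetine against vehicle gave 0 calls in HT mice in limma, with 0.277% of all genes called. There were 6 members at an unadjusted p under 0.05, edgeR called 0, and DESeq2 called 1, Mfge8. Mfge8 had 2241, 2839.5 and 3741 normalized counts in HT vehicle and 2621, 3830.2 and 4498 in HT fluoxetine libraries, a log2 difference of 0.40 ± 0.10 (limma adjusted p 0.0552). Leaving out any 1 of 5 libraries, HT fluoxetine male 1 or 5, HT vehicle female 5 or HT vehicle male 1 or 2, gave 1 call. Clu (0.25, limma adjusted p 0.192), S100b (-0.13, 0.345) and Sox9 (0.21, 0.358) came next.

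In WT mice fluoxetine gave 0 calls in limma as well, here with 5.66% of all genes called. At an unadjusted p under 0.05 there were 4 members, and edgeR and DESeq2 each called 1, Mlc1, a membrane protein of astrocyte endfeet. Mlc1 had a log2 difference of -0.12 (limma adjusted p 0.232). S100b had 2446, 2697 and 2881 normalized counts in vehicle and 2148, 2396 and 2727 in fluoxetine libraries, a difference of -0.16 (limma adjusted p 0.0698). Gjb6 differed by 0.21 (limma adjusted p 0.0994) and Bmpr1b, a bone morphogenetic protein receptor, by -0.19 (limma adjusted p 0.156).

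The WT fluoxetine count depended on the libraries. Without the 8 doubted libraries, of which 3 are WT fluoxetine females, 3 members passed (Mlc1, Pla2g7 and Slc1a2). Calls rose throughout, since 2004 of all genes were then called, against 939 with all libraries. With the bulb index as a covariate 6 members passed, and the share of all genes called in that fit is not given here. Leaving out WT fluoxetine female 1, WT fluoxetine male 4 or WT vehicle male 1 gave 1 call each. Myelin marker counts summed to a median of 111397 (57932 to 187652) in WT fluoxetine against 171731 (93022 to 272475) in WT vehicle libraries. Of the 12 myelin markers 8 were lower and 0 higher.

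HT against WT mice gave 0 members within each drug, and limma called 0.00% of all genes in vehicle, fluoxetine and lithium mice. At an unadjusted p under 0.05 the members numbered 2, 2 and 5 in that order, and edgeR and DESeq2 called 0 members in each. Across all genes the difference correlated with GC content, with Spearman values of -0.42, -0.23 and 0.37 in the same order (n = 16588). Sox9 had 417, 566 and 779 normalized counts in WT vehicle and 346, 448 and 538 in HT vehicle libraries. Its difference was -0.38 ± 0.10 on the log2 scale (limma adjusted p 0.335), with 0.02 in females and -0.78 in males. In males alone it passed, in a fit with fewer libraries whose share of all genes called is not given here. Sparcl1 (-0.09), Gjb6 (0.15) and Mfge8 (-0.20) followed, with limma adjusted p from 0.743 to 0.772.

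Under lithium, Btbd17 had the smallest p between genotypes, with 173, 330 and 373 normalized counts in WT and 302, 427 and 475 in HT libraries. The log2 difference was 0.45 ± 0.11 (limma adjusted p 0.137). Apoe (0.24), Ttyh1 (0.10) and Aldh1l1 (0.17) came next, with limma adjusted p from 0.3 to 0.362. Under fluoxetine the first was Bmpr1b, 0.26 (limma adjusted p 0.257). For the interaction of genotype and fluoxetine limma called 0 members and 0.00% of all genes, 5 members had an unadjusted p under 0.05, and edgeR and DESeq2 called 0.

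Set directly against fluoxetine in HT mice, lithium libraries were higher for Sparcl1 (0.15, limma adjusted p 0.0345), Fgfr3 (0.24, 0.039) and Gjb6 (0.27, 0.0478), with 2.15% of all genes called and 1.23% higher. These 3 calls lie close to the threshold and depend on which libraries are included. Leaving out any 1 of 13 libraries left 0 or 1 of them, 0 remained without the doubted libraries, and 1 with the GC trend removed. In WT mice the same comparison gave 0 members in limma (0.199% of all genes), 7 had an unadjusted p under 0.05, and edgeR and DESeq2 called 0. The drugs share their vehicle mice, so their changes against vehicle are not independent of each other.

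Females and males differed in how WT mice stood with fluoxetine. In the interaction of sex and fluoxetine, coded as the female change minus the male change, 7 members were higher and 0 lower, with 8.66% of all genes called, 3.58% higher and 5.08% lower. All 7 were above 0 in females and below 0 in males for fluoxetine against vehicle.

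Btbd17 had the largest value. WT females had 337, 367, 310, 201 and 330 normalized counts with vehicle and 481, 602, 522, 353 and 524 with fluoxetine. WT males had 491, 367, 401, 447 and 408 with vehicle and 220, 346, 251, 216 and 341 with fluoxetine. The female ranges overlap by 1 vehicle and 1 fluoxetine library, and the male ranges do not overlap. The change was 0.69 in females and -0.64 in males, an interaction of 1.34 ± 0.22 (limma adjusted p 0.00175).

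Acsbg1 followed with 0.45 ± 0.11 (limma adjusted p 0.0121). WT females had 3437, 3565, 3466, 3397 and 3403 normalized counts with vehicle and 4935, 4509, 4008, 4370.0 and 3348 with fluoxetine, and 4 of the 5 fluoxetine libraries were above all 5 vehicle libraries. WT males had 4070.2, 3503, 3772, 4410 and 4052 with vehicle and 3325, 4173, 3507, 3210 and 3477 with fluoxetine, where the ranges overlap.

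Sox9 had an interaction of 0.68 ± 0.19 (limma adjusted p 0.0208). WT females had 417, 435, 582, 551 and 450 normalized counts with vehicle and 515, 500.0, 702, 494 and 525.6 with fluoxetine, so the groups overlap. WT males had 521, 731, 755, 779 and 706 with vehicle and 442, 546, 483, 442 and 509 with fluoxetine. In males 4 vehicle libraries were above every fluoxetine library. The other 4 genes were Slc7a10, an amino acid transporter for serine, Hepacam, Apoe and Mfge8.

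**Figure D4:**
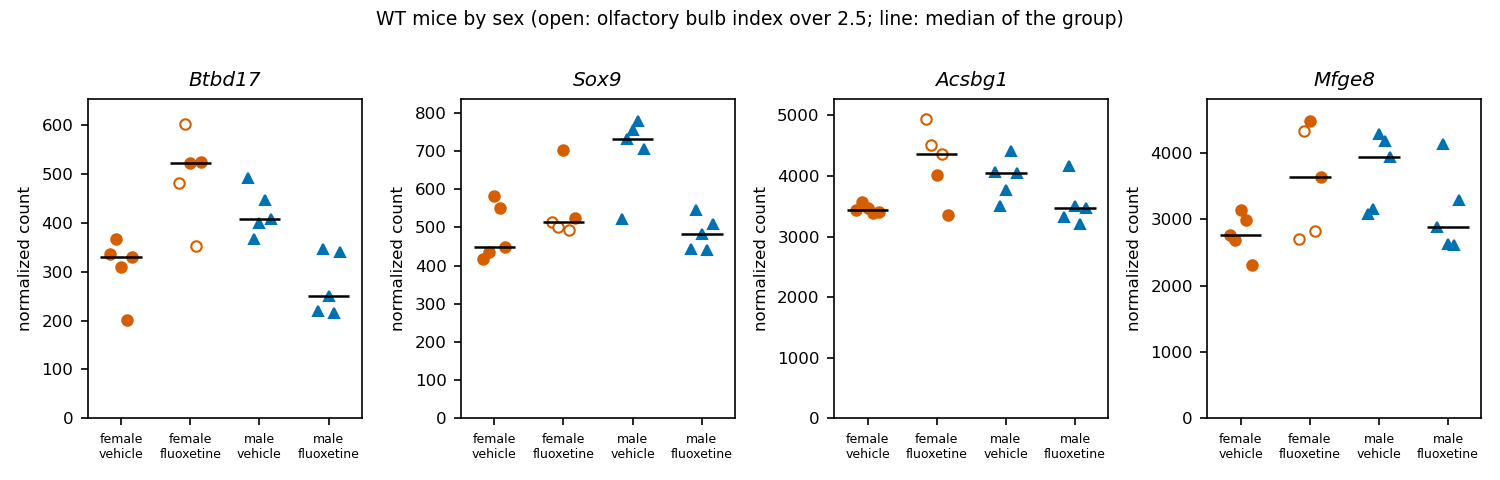
Normalized counts of Btbd17, Sox9, Acsbg1 and Mfge8 in WT mice by sex with vehicle or fluoxetine, 5 libraries in each group. Open points are libraries with an olfactory bulb index over 2.5, which here are 3 WT fluoxetine females.

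Library properties moved with this interaction. The 7 genes had a median GC content of 57.0%, against 49.2% for the other members, and across all genes the interaction correlated with GC content (Spearman 0.51, n = 16588). The slope on GC content ran from 0.0371 to 0.196 in WT fluoxetine females and from -0.151 to 0.0821 in WT fluoxetine males. It ran from 0.0114 to 0.142 in WT vehicle males and from -0.155 to 0.0332 in WT vehicle females. With the GC trend removed limma called 0 members and 0 of all genes, while the value of Sox9 was still 0.68 and that of Btbd17 0.95. The other 5 values were then from 0.19 to 0.39. Leaving out the doubted libraries drops WT fluoxetine females 1, 2 and 4, of 5 in that group. Then 1 member, Btbd17, was called, and 2 of all genes, with values of 1.43 for Btbd17 and 0.85 for Sox9. The median bulb index was 2.64 in WT fluoxetine females and 0.191 in WT fluoxetine males, against 1.24 and 1.18 with vehicle. With the bulb or the myelin index as a covariate 10 members passed, including all 7. The share of all genes called in those fits is not given here. Leaving out 1 library at a time gave 2 to 10 members, with 2 to 4 without WT fluoxetine female 2, WT fluoxetine male 1 or 3, or WT vehicle male 4 or 5.

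No other test involving sex gave a member in limma. The interaction of sex with lithium in HT mice had 0 members (0.0120% of all genes). There were 14 at an unadjusted p under 0.05, 0 in edgeR and 2 in DESeq2, Pla2g7 and Slc1a3. The percentages in this paragraph are for limma's adjusted p, and no share of all genes is given for the other counts. With the bulb index as a covariate, 0 members were called and 6 had an unadjusted p under 0.05. In WT mice sex with lithium had 0 (0.00% of all genes), 7 at an unadjusted p under 0.05, and 0 in edgeR and DESeq2. Sex with fluoxetine in HT mice had 0 (0.00% of all genes), and 1 had an unadjusted p under 0.05, with none from edgeR or DESeq2. Females against males over all arms had 0 members (0.217% of all genes), 8 at an unadjusted p under 0.05, and 0 in both count tools.

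Astrocyte genes differ between cortex and olfactory bulb, and members were set against the bulb index of the library. In a fit on the log2 index, added after the data were seen, 15 of 36 were higher and 4 lower with more bulb signal, with 57.0% of all genes called, 28.1% higher and 28.9% lower. With both directions joined, calls were thus no more frequent among the members than among all genes. By direction the members leaned higher, while all genes were split nearly evenly. The median slope was 0.0176 for the members and 0.00076 for all genes. The slope of Slc6a11, a GABA transporter, was 0.24 ± 0.01 log2 units per doubling of the index (limma adjusted p 4.22e-27), and that of Slc6a9 was 0.18 ± 0.01 (7.75e-21). Gfap had 0.16 ± 0.02, the bicarbonate transporter Slc4a4 0.13 ± 0.01 and Aqp4 0.12 ± 0.02.

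Slc6a11 had 6948, 9015 and 12021 normalized counts (lowest, median, highest) in the 7 libraries with an index over 2.5 and 3419, 4639.7 and 8953 in the other 52. Slc6a9 had 1122, 1517 and 1779 in those 7 and 618, 860.0 and 1376 in the rest. For both genes the ranges overlap, but every 1 of the 7 was above the median of the rest. Slc1a2 went the other way, with 48899, 72219 and 77956 normalized counts against 65102, 94487 and 116420, and 0 of the 7 were above the others' median. Clu, Mfge8 and Bmpr1b were the other 3 with lower levels.

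Gjb6 (0.02, limma adjusted p 0.226), S100b (0.01, 0.244) and Aldoc (-0.02, 0.222) did not pass on the bulb index. A like fit on the myelin markers gave 3 higher members, Mfge8 with 0.23, Htra1, a secreted protease, with 0.16 and Cbs with 0.14, and 0 lower, with 11.2% of all genes called, 5.74% higher and 5.44% lower.

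**Figure D5:**
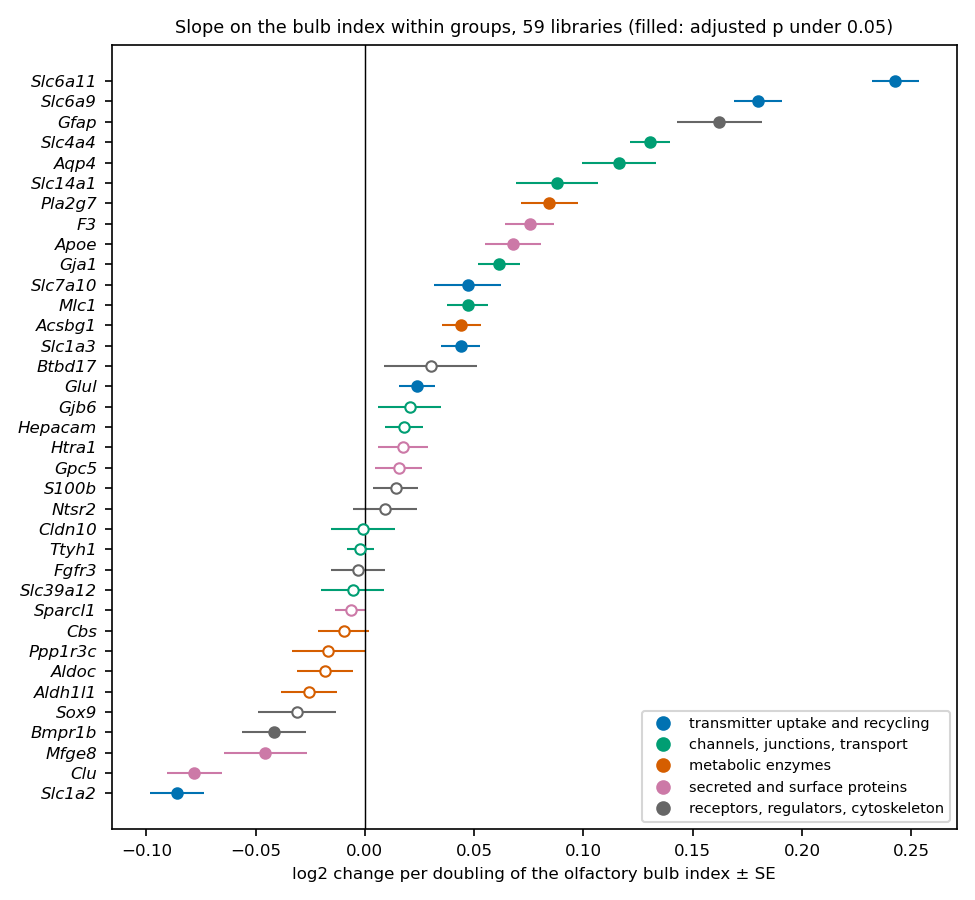
Slope of each astrocyte gene on the log2 olfactory bulb index over the 59 libraries, with its standard error. Filled points have a limma adjusted p under 0.05, 15 above 0 and 4 below 0, and Slc6a11 has the steepest slope at 0.24.

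Further astrocyte lists were read in the same fits. For lithium in HT mice the shares over all genes to set beside the counts are 10.9% higher and 9.43% lower, and 4 of 34, the first count, is near that share. With lithium in HT mice 4 of 34 other astrocyte genes were higher, among them the metallothionein Mt3 (0.38) and Daam2 (0.25), and 1, the GABA receptor subunit Gabrg1, was lower (-0.26). Of 16 transcription regulators 5 were higher, among them Nfix (0.38) and Notch1 (0.27), and 0 lower. Of 11 factors that act on synapses 5 were higher and 0 lower: the proteoglycans Ncan (0.40), Bcan (0.31), Gpc6 (0.33) and Gpc4 (0.29) and the engulfment receptor Mertk (0.26). The median change of that list was 0.26.

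Among 10 genes of glycogen and lactate handling 4 were higher, with glycogen synthase Gys1 at 0.27, and 1 was lower, the branching enzyme Gbe1 (-0.24). Of 14 tested genes of the reactive state 1 was higher (S1pr3, 0.33) and 1 lower (S100a10, -0.23).

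With lithium in WT mice, where 7.66% of all genes were higher and 5.11% lower, the same lists gave 3 of 34 higher (among them Daam2 0.17 and Plcd4 0.26), 1 of 16 (Rbpj 0.16), 3 of 11 (Mertk 0.39, Ncan 0.23 and Gpc4 0.28) and 1 of 14 (Aspg 0.52). The counts of 3 of 34, 1 of 16 and 1 of 14 are near the share of all genes. Gys1 was higher (0.21) and the monocarboxylate transporter Slc16a1 lower (-0.32). Ncan, a matrix proteoglycan of the perisynaptic space, was also higher with fluoxetine, by 0.29 in HT and 0.21 in WT mice. Against vehicle, Ncan thus passed in 4 of 4 comparisons, which share 2 vehicle arms.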

How the data were processed

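Prefrontal cortex RNA of 59 mice was sequenced after TruSeq Stranded mRNA preparation, per the labels' protocols. The submitters' processing notes name Salmon 0.11.2, DESeq2 1.19.11, R 3.6.0 and build GRCm38. The deposited signal is a normalized count per gene: each library divided by its smallest value gave whole reads for 100.0% of values within 0.001. Whether counting used strand is not given in the sources used here. Exons of Fgfr3, Glul, Slc6a9, Slc7a10 and Ttyh1 overlap other listed genes on the opposite strand, so their reads are uncertain to that extent.

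The members and all lists were chosen with earlier results of these data known. limma 3.58.1 (R 4.3.3, trend and robust) was fitted to log2(normalized count + 1) of 16599 genes with 12 group means, two-sided, with Benjamini-Hochberg adjustment over all genes and a threshold of 0.05. Arms are equal means of both sexes. Fold changes on this scale understate those of low genes.

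edgeR 4.0.16 and DESeq2 1.42.0 were alternatives on recovered reads of 54 libraries. The other 5 also gave whole numbers, but a separate check of the units did not accept them. They were left out of these tools alone, leaving at least 4 libraries per group. Other alternatives changed the pseudocount, normalization, filter, samples, GC or length trend, bulb or myelin index and replicate block, or left out libraries. Length and GC content are those of the longest protein-coding transcript in GENCODE M21, a rule changed after the first run. Replicate numbers were not treated as pairing mice, since the labels do not say what they mark. Over 319 pairs of the same number the median correlation was -0.00859, against 2.94e-05 over 1276 pairs of other numbers. Such a median cannot exclude that some numbers mark a litter or batch. Genes were named where they passed, up to 8 per direction by smallest p, or up to 4 by smallest p where fewer passed, beside 8 much-used markers. A gene of the further astrocyte lists is not reported here by name. Scripts were tested on simulated counts. Python 3.11.15 was used for tables.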

Additional observations from a re-analysis of the deposited data

Results flagged for a closer look

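Among 216 checks of a gene in an arm, 16 had a single library far from the rest by Dixon's ratio, where chance gives about 1 in 20. All values are normalized counts. HT fluoxetine male 5, with a bulb index over 2.5, had the highest Slc6a11 (8053, next 5599) and Slc4a4 (5711) and the lowest Aldoc (13772) of its arm. HT lithium female 4, with an index of 3.04, had the highest Slc6a9 (1527). HT lithium female 5, the library with few mitochondrial counts, had the highest Cbs (1071) and the lowest Slc7a10 (499.9). HT lithium female 2 had the highest Ppp1r3c (1346) and Gpc5 (1288).

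In WT fluoxetine, female 1 had the lowest Gpc5 (742), female 2 the highest Htra1 (4458) and Fgfr3 (3187), and female 3 the highest Sox9 (702). Elsewhere, WT vehicle female 5 had the lowest Slc7a10 (435), HT vehicle female 2 the lowest Slc14a1 (173), HT vehicle male 1 the highest Mfge8 (3741) and HT fluoxetine female 4 the highest Gfap (6711).

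The fluoxetine change of 7 genes differed between the sexes in WT mice by limma's interaction term. The female minus male values on the log2 scale were 1.34 for Btbd17, 0.45 for Acsbg1, 0.68 for Sox9, 0.59 for Slc7a10, 0.31 for Hepacam, 0.53 for Apoe and 0.62 for Mfge8, with adjusted p from 0.00175 to 0.0469. With the GC trend removed 0 of these were called, with values of 0.68 for Sox9, 0.95 for Btbd17 and 0.19 to 0.39 for the rest.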

How the results depend on the processing

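Counts of members called did not change by over 1.5 times with pseudocounts of 0.5 or 5, with no filter, with the length trend removed or with the replicate block, and no called value changed sign under any alternative. The replicate block left 12 members for lithium in HT mice, 4 for lithium in WT mice, 2 for lithium against fluoxetine in HT mice and 6 for sex with fluoxetine in WT mice, and 0 elsewhere. Lithium in HT mice went from 12 to 4 in males alone. Lithium in WT mice went from 3 to 5 with only the groups compared, 5 with the GC trend removed, 6 with the bulb covariate, 5 without the doubted libraries and 1 in females alone. Fluoxetine in HT mice went from 0 to 1 in DESeq2. Fluoxetine in WT mice went from 0 to 1 in edgeR and DESeq2, 6 with the bulb covariate, 3 without the doubted libraries, 3 in females alone and 2 in males alone.

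Lithium against fluoxetine in HT mice went from 3 to 1 with quantile normalization or the GC trend removed, and to 0 with only the groups compared, without the doubted libraries or in either sex alone. Sex with fluoxetine in WT mice went from 7 to 3 with only the groups compared, 4 in edgeR, 0 with the GC trend removed and 1 without the doubted libraries. From 0, HT against WT vehicle gave 1 in males alone, genotype with lithium 1 in DESeq2 and 4 in males alone, sex with lithium in HT mice 2 in DESeq2, and females against males 1 with the bulb covariate. The myelin covariate, chosen after seeing the data, gave 5 members for lithium in WT mice, 1 for fluoxetine in HT mice, 2 for fluoxetine in WT mice and 5 for lithium against fluoxetine in HT mice. The cause of these changes was not tested. Where libraries were left out, both the number and the make-up of the samples changed. Calls over all genes are given below only for the GC trend and the doubted libraries, so the other counts have no such share beside them.

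Leaving out 1 library at a time gave 11 to 15 members for lithium in HT mice and 3 to 5 in WT mice (5 without WT lithium male 5 or WT vehicle male 1), 0 to 1 for fluoxetine in either genotype, 0 to 4 for lithium against fluoxetine in HT mice, 2 to 10 for sex with fluoxetine in WT mice, and 0 to 0 in the rest. Over all genes, lithium in HT mice went from 3374 to 1937 with the GC trend removed and 2123 without the doubted libraries. In the same settings lithium in WT mice went from 2120 to 2524 and 3029, and fluoxetine in WT mice from 939 to 1173 and 2004. In 42 pairs of gene and comparison, 193 values that were never called changed sign. Depth limits Slc14a1 most among the members, with as few as 145 normalized counts in a library.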
